A study of Mus musculus with 15 samples.

Results

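The muscle microRNA genes of the mouse were examined in a map of the histone mark H3K27ac from tumors of a rhabdomyosarcoma model. The group held 9 genes, Mir206, Mir133b, Mir1a-1, Mir133a-2, Mir1a-2, Mir133a-1, Mir208b, Mir499 and Mir486, which lie in 6 loci of the genome. They were chosen by name, and the peaks assigned to them were those with at least 1 bp within 50 kb of the RefSeq hairpin. The hairpin is the folded precursor that is cut to the mature microRNA (miRNA). By this rule, 19 distinct peaks out of the 122375 in the list belonged to the 9 genes, which are 9 of the 1228 miRNA genes that RefSeq places on these chromosomes.

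Tumors came from mice of the MCP model, which carried Myf6-Cre, Cdkn2a(Flox/Flox), the fusion allele that the labels write as Pax(3P3F/P3F), and the reporter R26-tdTom. Cre from the Myf6 locus acts in myogenic cells, where it turns on the fusion PAX3-FOXO1 (P3F) from the Pax3 locus, removes Cdkn2a and labels the cells with tdTomato. Of the 15 CUT&RUN libraries in the series, 6 are of MCP with an H3K27ac antibody, 3 are of MCP with IgG, and 3 of each kind are of TCP tumors, in which Tek-Cre replaced Myf6-Cre and the other alleles are shared. CUT&RUN cuts out the DNA next to an antibody, H3K27ac marks active promoters and enhancers, and IgG gives the background. The peak list of MCP H3K27ac replicate 5 was the only one analyzed, so no value below has a replicate, no test between samples was made, and TCP was not analysed here.

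Muscle miRNAs, or myomiRs, are small RNAs, most of them made chiefly in skeletal and cardiac muscle. There they repress genes of proliferation and of other cell fates as myoblasts differentiate. MyoD, myogenin, MEF2 and SRF are known to drive most of them, and many are cut from the intron of a myosin gene or of a noncoding RNA. In human rhabdomyosarcoma, miR-1, miR-206 and miR-133 are known to be low in comparison with normal muscle. H3K27ac marks the DNA that may control a miRNA gene and gives no measure of the miRNA itself.

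Mature sequences from RefSeq (GRCm38.p6) were taken for 5 of the 9 genes. They are shown because the seed, bases 2 to 8, sets which messenger RNAs a miRNA recognizes. Capitals mark the seed in each line.
miR-206-3p: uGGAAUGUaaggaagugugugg
miR-133b-3p: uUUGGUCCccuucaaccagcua
miR-208b-3p: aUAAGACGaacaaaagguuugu
miR-499-5p: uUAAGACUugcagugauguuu
miR-206-5p: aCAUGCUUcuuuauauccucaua
miR-1a-1-5p: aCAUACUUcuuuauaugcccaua
The miR-208b-3p and miR-499-5p strands, both encoded in myosin introns, had the same base at 6 of the 7 seed positions. The 5p strands of miR-206 and miR-1a-1 had the same base at 20 of 23 positions and at 6 of 7 in the seed. Between miR-206-3p and miR-133b-3p, which are neighbors in the genome, 1 of 7 seed positions was the same. So neighbors in 1 locus can have unlike seeds. Mir1a-2, Mir133a-1, Mir133a-2 and Mir486 are named only.

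At least 1 peak lay within 50 kb of 7 of the 9 genes and of 5 of the 6 loci, where 74.8% of all RefSeq miRNA genes had one. Within 10 kb of the hairpin, Mir206, Mir133b and Mir133a-1 had a peak, 3 of 9, against 48.6% of all miRNA genes. Within 2 kb, Mir206 alone did, against 23.8%. The 9 genes had 0 to 6 peaks with a median of 4, and all miRNA genes had a median of 6 with quartiles of 0 and 15. The percentile of a count is its rank among the 1228 genes with ties at their middle, and the median over the 9 genes was 41.5. Their nearest summits, the highest points of the peaks, were 0.107 to 90.4 kb away with a median of 29.9 kb. The median over all miRNA genes was 10.7 kb, with quartiles of 2.36 and 50.5 kb. The genes of a pair share most of their peaks, so the 9 counts are not independent.

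**Figure D1:**
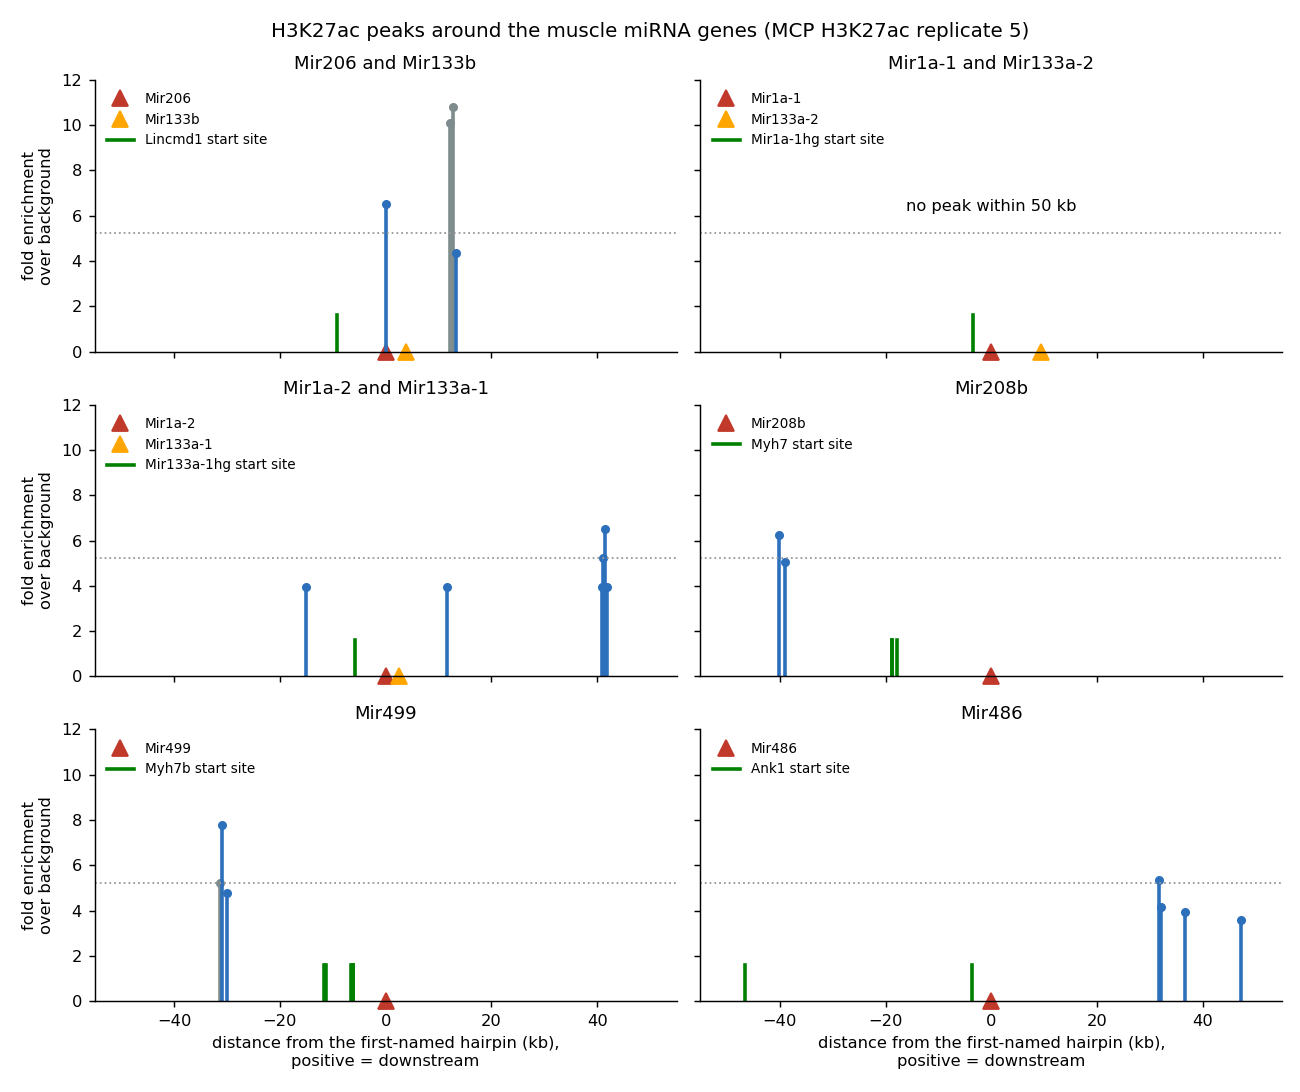
H3K27ac peaks at the 6 loci, by the distance of the summit from the first-named hairpin in kb along the direction of transcription (x) and by fold enrichment over the local background (y). Triangles are hairpins, green ticks are start sites of the host gene, gray peaks have a 2-base repeat of at least 20 bp at the summit, and the dotted line is the median of all peaks, 5.22. Mir206 has a peak at its hairpin, and Mir1a-1 and Mir133a-2 have none.

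The list gave for each peak a fold enrichment over the local background, which is a ratio, a -log10 p and a -log10 q. The number of fragments over the summit was recovered from the fold and the -log10 p. Over the 19 peaks the fold ranged from 3.58 to 10.8 with a median of 5.05, next to 5.22 for all peaks, and 7 of the 19 were above that median. The summits held 8 to 33 fragments with a median of 13.0, and all peaks had a median of 13. At the most frequent background, 1.05 fragments, the fewest fragments in any listed peak were 8, and 5 of the 19 peaks had just that number. Regions with fewer fragments at that background were not listed, so the absence of a peak means that enrichment was not detectable at this depth. A mark in few cells and a weaker mark in every cell cannot be told apart in these bulk tumor libraries. By position, 13 of the 19 summits were in introns, 2 in exons and 4 between genes. These counts describe the 19 peaks only, since no such shares over all peaks are given here. At 5 of the 19, the peak reached a promoter, which is 2 kb either side of a curated RefSeq start site, and those promoters belonged to Gss and Ngdn. Over the whole list, 25756 of 122375 summits lay within 2 kb of a curated start site.

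Over all listed peaks, Mir206 was the member with the nearest one. Its hairpin (mm10 chr1:20679010-20679082, plus strand) lies in an intron of Lincmd1, a muscle long noncoding RNA known to act as a decoy for miR-133. A peak of 98 bp began 61 bp downstream of the hairpin, and its summit was 107 bp away. The peak had a fold of 6.51, a -log10 q of 7.09 and 14 fragments (Poisson 95% interval 7.65 to 23.49). With the strongest 25% of peaks alone (-log10 q of at least 7.40) this peak drops out, the nearest summit to Mir206 is 12.1 kb away, and Mir133b is the nearer member at 8.33 kb. Ranked over all peaks by how near the closest summit was, Mir206 stood at percentile 96.5 of the miRNA genes. The sequence of this peak is shown because no other peak lay within 2 kb of a member, and capitals mark an E-box, CAGGTG, the kind of site bound by E proteins and the MyoD family.
Mir206 peak, chr1:20679143-20679240, mm10, plus strand: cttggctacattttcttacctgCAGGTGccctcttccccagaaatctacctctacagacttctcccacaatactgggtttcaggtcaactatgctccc
An E-box of the letters CACCTG or CAGGTG, which are one site read on either strand, was in 12.4% of the 201-bp windows at all summits. This match is a description of letters, and binding there was not measured.

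Mir133b (chr1:20682769-20682887, plus strand) lies downstream in an exon of the same RNA. Its nearest summit was the one at Mir206, 3.58 kb upstream. Both genes also had 3 intergenic peaks beyond the end of Lincmd1, all downstream. The first, chr1:20691005-20691385, was 12.14 kb from Mir206 and 8.33 kb from Mir133b, with a fold of 10.1, a -log10 q of 20.1 and 33 fragments (22.72 to 46.34). The second, chr1:20691560-20692124, was 12.78 and 8.98 kb away, with a fold of 10.8, a -log10 q of 17.1 and 24 fragments (15.38 to 35.71). These were the strongest peaks of any member by fold. The third, chr1:20692242-20692352, was a weak one with a fold of 4.36 and 9 fragments (4.12 to 17.08). On the other side of the hairpins the next peak lay 543 kb from Mir206, in an intron of Pkhd1. All peaks of the locus therefore lay inside or downstream of Lincmd1, and its start site, 9.31 kb from the nearest summit, had none.

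Both strong summits downstream of Mir133b lay on simple repeats. The 201-bp windows are shown with the longest run of a 2-base repeat in capitals.
First summit, chr1:20691119-20691319, mm10, plus strand: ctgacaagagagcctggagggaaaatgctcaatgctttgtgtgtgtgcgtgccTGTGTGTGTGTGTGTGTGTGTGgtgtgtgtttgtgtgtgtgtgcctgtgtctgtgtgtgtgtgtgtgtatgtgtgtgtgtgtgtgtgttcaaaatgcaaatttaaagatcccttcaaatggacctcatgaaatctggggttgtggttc
Second summit, chr1:20691762-20691962, mm10, plus strand: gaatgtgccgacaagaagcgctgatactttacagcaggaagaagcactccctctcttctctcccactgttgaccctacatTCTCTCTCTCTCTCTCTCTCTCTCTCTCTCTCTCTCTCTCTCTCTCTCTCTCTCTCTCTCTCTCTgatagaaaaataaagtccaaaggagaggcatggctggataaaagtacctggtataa
The run was 22 bp of TG in the first window and 65 bp of TC in the second. Of all peaks, 4.20% had a run of at least 20 bp at the summit, and of the 19 peaks 3 did, the other one being a peak near Mir499. The search began from the windows shown here, so these shares are no independent comparison. The first summit had an IgG background of 2.00 fragments, above the most frequent 1.05, and the second had 1.05. Without these 3 peaks, 16 peaks were left at the same number of genes, 7, and the highest fold among them was 7.80. The part of the repeats in these peaks was not tested.

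Mir1a-1 (chr2:180389048-180389124) and Mir133a-2 (chr2:180398379-180398482) had no peak within 50 kb. Both lie on the plus strand in introns of the noncoding Mir1a-1hg. The nearest summit was 81.0 kb from Mir1a-1 and 90.4 kb from Mir133a-2, in an intron of the noncoding Gm29943 with a fold of 4.36 and 9 fragments (4.12 to 17.08). The stretch without a peak around the pair was 273 kb long, and its far end was a peak near the start site of Mrgbp, with a fold of 11.7 and 26 fragments (16.98 to 38.1). A count of 0 was shared by 310 of the 1228 miRNA genes. For the start of Mir1a-1hg the nearest summit was 77.6 kb away. Mir1a-1 encodes a miR-1 and Mir133a-2 a miR-133, the families of the next pair.

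Mir1a-2 (chr18:10785481-10785552) and Mir133a-1 (chr18:10782909-10782976) lie on the minus strand in introns of the predicted noncoding gene Mir133a-1hg, inside and antisense to Mib1, an E3 ubiquitin ligase of the Notch pathway. Each had 6 peaks, at percentile 49.6, and all 6 were in introns of Mib1. A cluster of 4 peaks lay 38.31 to 41.81 kb downstream of the hairpins, with folds of 3.93, 6.51, 5.22 and 3.93. A single peak of 79 bp was 8.95 kb downstream of Mir133a-1 and 11.52 kb downstream of Mir1a-2, with a fold of 3.93 and a -log10 q of 2.58. Another was 14.96 kb upstream of Mir1a-2 and 17.54 kb upstream of Mir133a-1, also with a fold of 3.93. The 6 summits held 8 to 14 fragments, and 4 of them held the fewest, 8, with a -log10 q of 2.58. With a -log10 q of at least 5, only the peak with a fold of 6.51 was left, 38.8 kb from Mir133a-1 and 41.4 kb from Mir1a-2. H3K27ac peaks have no strand, so those in Mib1 cannot be assigned to either gene. The Mib1 promoter lay outside the window and had 3 peaks of its own, of which the highest had a fold of 5.65 and 12 fragments (6.2 to 20.96). The start site of Mir133a-1hg had none within 2 kb, and its nearest summit was 9.12 kb away.

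Mir208b (chr14:54975700-54975776, minus strand) lies in an intron of Myh7, which encodes the slow and cardiac beta myosin heavy chain. Its only peaks were 2 at the promoter of Ngdn, a gene of ribosome assembly, 39.02 and 40.09 kb upstream. Their folds were 5.05 and 6.26, with 16 fragments (9.15 to 25.98) and 17 (9.9 to 27.22). No peak lay in Myh7, and its start sites were 20.2 kb or more from any summit. Of the cardiac genes next to it, Myh6 and the noncoding Mhrt had no promoter peak, and Mir208a had no peak within 50 kb.

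Mir499 (chr2:155622880-155622958, plus strand) lies in an intron of Myh7b, a slow myosin gene. Its only peaks were 3 at the promoter of Gss, which encodes glutathione synthetase, 29.9 to 31.32 kb upstream. From far to near their folds were 5.22, 7.80 and 4.76, with 11 fragments (5.49 to 19.68), 17 (9.9 to 27.22) and 15 (8.4 to 24.74). The farthest of them is the peak with a 22-bp run of AC. Myh7b had no peak in its body, and no summit was nearer than 18.3 kb to its first start site. Thus Mir208b and Mir499, which have like seeds and myosin hosts, had peaks only at the promoters of neighbors.

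Mir486 (chr8:23142555-23142682, plus strand) lies in an intron of Ank1, which encodes ankyrin of red cells and, from a short late transcript, a muscle form. Its 4 peaks were all in Gpat4, an enzyme of glycerolipid synthesis, 31.56 to 47.14 kb downstream, with folds of 5.35, 4.17, 3.93 and 3.58 and 17, 13, 8 and 11 fragments. The short Ank1 transcript starts 3.52 kb upstream of the hairpin, and no summit was nearer to that start than 35.2 kb. Ank1 held 4 peaks in a cluster up to 105 kb upstream of Mir486, beyond the window. The strongest, chr8:23038425-23039199, had a fold of 12.1, a -log10 q of 19.5 and 27 fragments (17.79 to 39.28). The first summit of that cluster was 2.50 kb from a start site of a longer Ank1 transcript, outside the promoter window of 2 kb.

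None of the 6 host genes, Lincmd1, Mir1a-1hg, Mir133a-1hg, Myh7, Myh7b and Ank1, had a promoter peak. The first 3 are long noncoding RNA (lncRNA) genes, and 22.4% of all lncRNA genes had one, predicted transcripts included. The other 3 code for proteins, and 45.6% of all protein-coding genes had one. With a promoter of 5 kb either side, 1 host, Ank1, had one, next to 29.7% of lncRNA and 49.1% of protein-coding genes. Inside the host genes, Lincmd1 held 1 peak, Ank1 held 4 and the others held 0. So among the members the peak beside Mir206 was the only one within its own host gene and window.

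**Figure D2:**
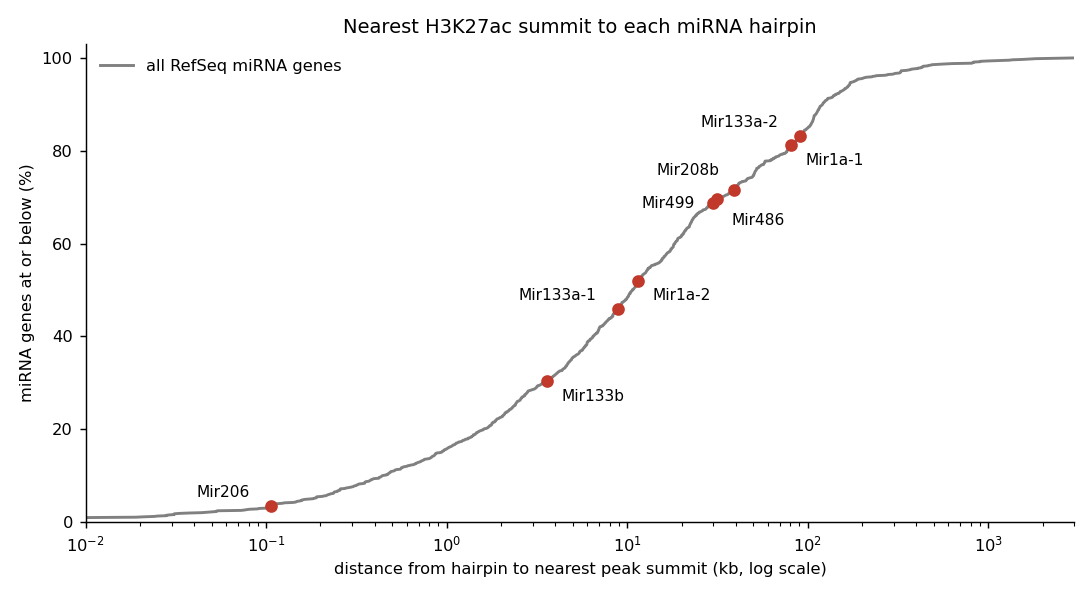
Distance from each hairpin to the nearest H3K27ac summit in kb on a log scale (x) and the percent of the 1228 RefSeq miRNA genes at or below that distance (y, gray line). Red points are the 9 muscle miRNA genes, with Mir206 nearest at 0.107 kb and Mir133a-2 farthest at 90.4 kb.

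Sequence at the summits was searched for sites of the factors known to act on these genes, on both strands, in windows of 100 bp either side. The E-box CAGCTG, preferred by MyoD, was in 1 of the 19 windows, a Gpat4 intron peak near Mir486, and in 10.0% of all. The E-box CACCTG or CAGGTG was in 3 of 19, at Mir206, Mir499 and Mir486, and in 12.4% of all. The TEAD site GGAATG was in 3 of 19 and in 11.4% of all. With 150 bp either side it was in 6 of 19 (31.6%) and in 16.9% of all, while the counts of 19 for the other motifs were as with 100 bp. The MEF2 site, the SRF CArG box and the PAX3 homeodomain dimer were in 0 of 19, and in 3.02%, 0.990% and 0.450% of all. These counts describe letters in 19 windows and say nothing about binding.

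Other miRNA genes give the scale of these counts. The 14 miRNA genes listed here as broadly expressed, such as Mir21a, Mir29a and Mir214, all had a peak within 50 kb (Wilson 95% interval of the share 78.5 to 100%). They had 1 to 69 peaks with a median of 26.0. Their median nearest summit was 0.427 kb away. Mir29a and Mir29b-1 had 69 peaks, Mir21a had 63, and Mir17 had 1. The 15 miRNA genes of other tissues, such as the liver Mir122 and the neuronal Mir124a genes, had a peak in 9 cases (60.0%, 35.7 to 80.2%), with 0 to 11 peaks, a median of 1.00 and a median nearest summit 41.3 kb away. This list holds the cardiac Mir208a, a relative of Mir208b. Without it 9 of 14 had a peak (64.3%, 38.8 to 83.7%), with a median of 1.50 and a median nearest summit 40.5 kb away. The highest count among them, 11, was at Mir126a, the miRNA of endothelial cells, followed by 5 at Mir155 of leukocytes and at Mir124a-1. With or without Mir208a, the muscle genes lay between both lists in median count and in median distance. Genes of a cluster, such as Mir23a, Mir27a and Mir24-2, share their peaks. The genes of a list are therefore not all independent, and the intervals and medians above do not allow for that.

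**Figure D3:**
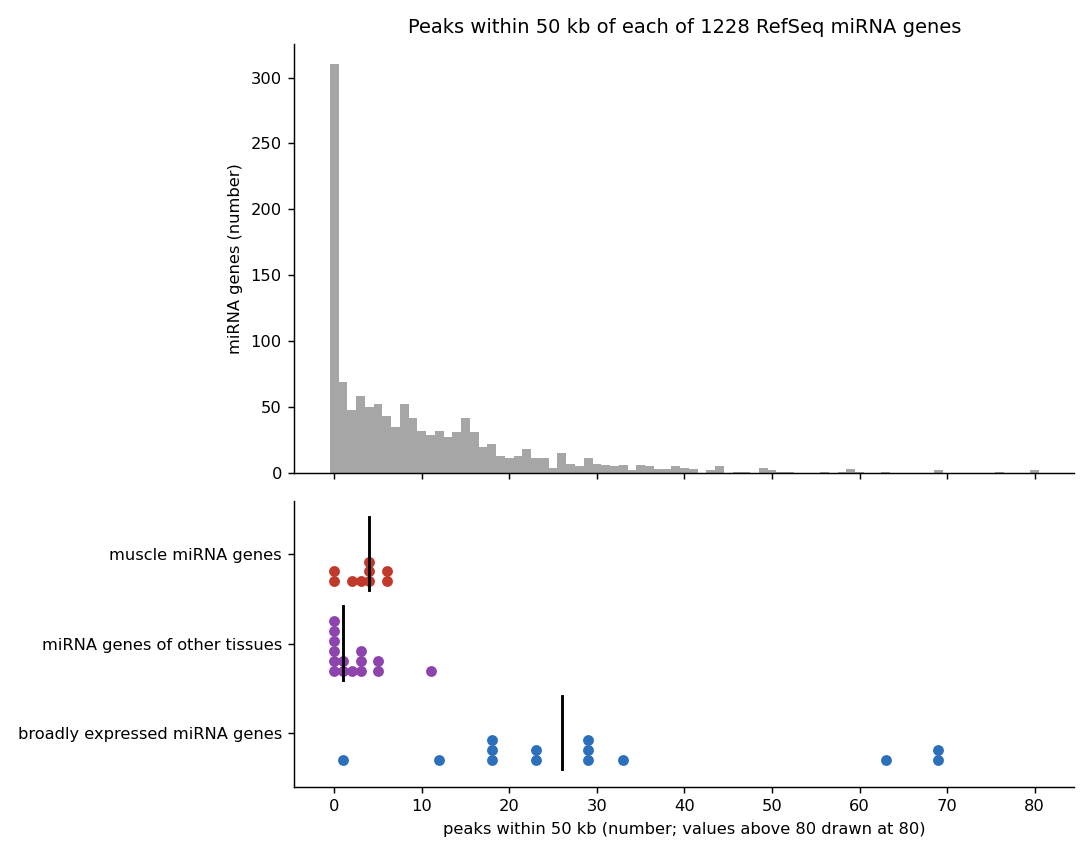
Number of H3K27ac peaks within 50 kb (x) of all 1228 RefSeq miRNA genes (upper panel, y is the number of genes) and of 3 lists (lower panel, each point is a gene and the black line is the median). The muscle genes have 0 to 6 peaks with a median of 4, and the broadly expressed genes have a median of 26.0.

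By rule, the genes most like the members were those outside their windows with 4 peaks, the median, and a nearest summit closest to 29.9 kb. These were Mir466q at 28.0 kb, Mir6365 at 33.2 kb and Mir211 at 33.7 kb, out of 50 genes with 4 peaks. Relatives by name also varied. Mir133c had 1 peak with a summit 7.01 kb away, Mir208a had 0 with the nearest at 53.0 kb, and Mir1b and Mir3107 overlap members on the other strand and had 6 and 4.

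Genes that act before and after the miRNAs were read at their promoters. The 16 genes of miRNA biogenesis had a promoter peak in 13 cases (81.2%, 57.0 to 93.4%), beside 45.6% of protein-coding genes. Dicer1, which cuts the hairpin to the mature duplex, was highest with a fold of 10.4 and 23 fragments (14.58 to 34.51). Xpo5, which carries the hairpin out of the nucleus, followed with 8.24. Dgcr8, the partner of Drosha, and Ran, which exportin needs, both had 7.37. Drosha, Tarbp2, Prkra, Ago2, Ago3, Ddx5, Ddx17, Tnrc6a and Tnrc6b also had a peak, and none was listed at Ago1, Ago4 and Tnrc6c. The machinery that all miRNAs share thus had promoter peaks at most of its genes.

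Of 11 factors known to drive the muscle miRNA genes, 7 had a promoter peak (63.6%, 35.4 to 84.8%), beside 45.6% of all protein-coding genes. The interval is wide and holds that share, and with genes picked by hand it is no test. Srf had a fold of 11.2 and 25 fragments (16.18 to 36.9), Mef2d had 10.4, and Tead1 had 8.84. Mef2a, the SRF coactivators Mrtfa and Mrtfb, and Myf6 also had one. The myogenic factors Myod1, Myog and Myf5 and the factor Mef2c had none, with nearest summits 26.0, 56.1, 7.17 and 30.6 kb from a start site. At Myf6, which carries the Cre of the model, the fold was 5.97 with 13 fragments (6.92 to 22.23). Of the 4 muscle regulators of the MyoD family, 1 had a promoter peak.

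Of 24 genes reported as targets of these miRNAs, 16 had a promoter peak (66.7%, 46.7 to 82.0%), beside 45.6% of all protein-coding genes. Pax3, a target of miR-1 and miR-206 and the locus that carries the fusion allele, was highest with a fold of 18.1 and 46 fragments (33.68 to 61.36). Maml1, a Notch coactivator, had 14.6 with 41 fragments (29.42 to 55.62). Utrn, which encodes utrophin and is a target of miR-206, and Purb, a repressor of slow muscle genes and target of miR-208b and miR-499, both had 12.5. Others with a promoter peak were Srf, Gja1, Sp3, Met, Hdac4, Twf1, Med13 and Foxo1. Pax7, Ccnd2, Notch3, Pola1, Igf1, Sox6, Prdm16 and Hand2 had none. A promoter peak does not show whether a target is repressed, since miRNAs act on messenger RNA.

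The muscle label was checked against markers at their promoters. Of 12 muscle markers 1 had a promoter peak (8.33%, 1.49 to 35.4%), beside 45.6% of all protein-coding genes. It was Myf6, and Myod1, Myog, Myf5, Pax7, Des, Cdh15, Chrna1, Mymk, Ckm, Actc1 and Tnnt1 had none. The muscle share was 0% with 1 kb either side of the start site and 16.7% with 5 kb. All protein-coding genes then had 43.5% and 49.1%. With the strongest 25% of peaks the shares were 0% and 29.3%. Of 8 endothelial markers 0 had a promoter peak (upper limit 32.4%). Of 6 leukocyte markers 1 did (16.7%, 3.01 to 56.4%), Cd68, with a fold of 5.91. These genes were picked by hand with earlier results of these data known. The intervals therefore describe the lists and are no test against the 45.6% of all protein-coding genes. Most muscle markers, like the muscle miRNA hosts, thus had no promoter peak in this list, although Cre of the model acts in myogenic cells. The paper reports that MCP mice developed a range of tumor types and that MCP tumors were heterogeneous. It also reports MCP tumors that stained for DESMIN, MYOD1 and MYOGENIN. Against gastrocnemius muscle, MCP tumors were enriched for a gene signature of human alveolar rhabdomyosarcoma. In the paper, 1 MCP tumor had lower Myogenin and MyoD1, and staining for both proteins was focal in MCP tumors. Whether the tumor of this library had low or focal Myogenin and MyoD1 was not tested. The marker shares count promoter windows only and leave out enhancers farther away. The part of the library's depth in these counts was not tested.

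**Figure D4:**
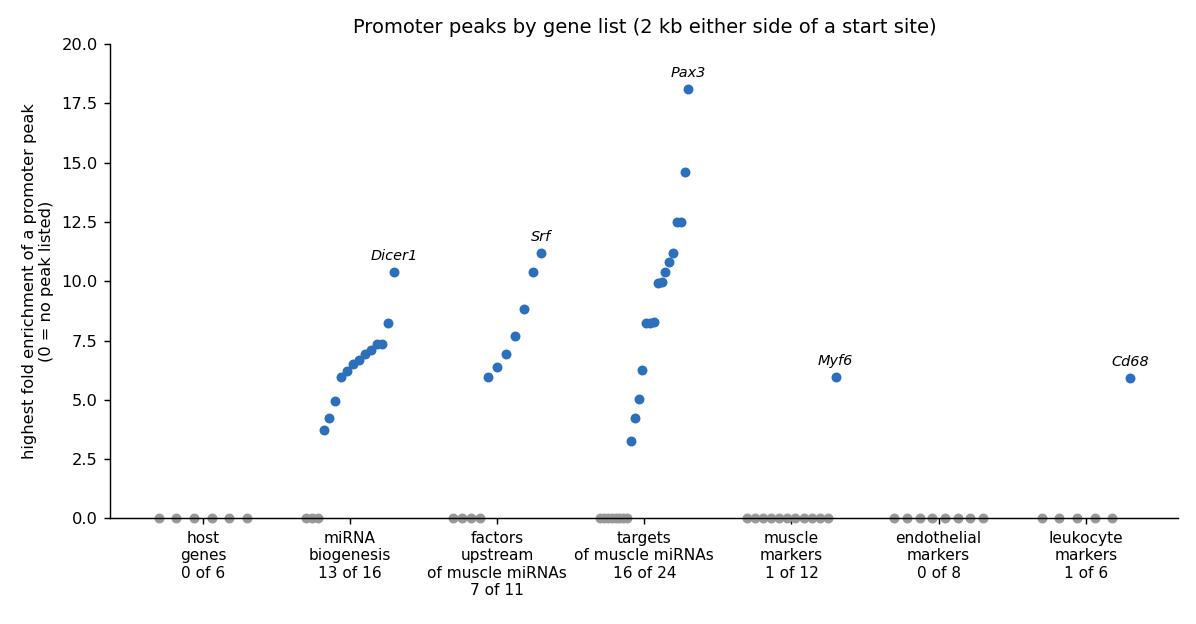
Highest fold enrichment of a promoter peak (y, 0 where no peak was listed) for each gene (point) of the host genes and 6 gene lists (x, with the number that had a peak). The 6 host genes are all at 0, and the highest point is Pax3 at 18.1.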

How the data were processed

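Per the labels, CUT&RUN was done on cells sorted from dissociated tumors. In the study's methods, read pairs were mapped to mm10 with bowtie, keeping pairs with up to 2 places. Reads in problematic regions and near Col19a1 were discarded, and an earlier version of MACS called peaks against the library's IgG. The submitters' processing notes name BWA, SAMtools and MACS2, and the list analyzed is a MACS2 list. Whether the mapping and discarding steps of the methods applied to this list is therefore not known. The authors' deposited list gives a score, a fold enrichment (a ratio to local background), a -log10 p-value and a -log10 q-value per peak (largest q 0.0471), called per library. Values were used as deposited. Fragments at each summit were solved from fold and p with 1 scale between libraries (0.885), which gave a whole number within 0.002 in -log10 p for 100.0% of peaks and for 0.300% with a scale 3% off. They are inferred, and intervals (exact Poisson, Wilson, 95%) cover counting error only. Hairpins, hosts and start sites came from RefSeq GRCm38.p6, the build of the list. Counting, fragment and motif steps (Python 3.11.15, pandas 2.3.3, pysam 0.24.0) were tested on simulated data. The genes named were all members, their hosts and neighbors with promoter peaks, and list genes with a promoter peak, with values for the 3 highest folds and ties. Some list genes are counted but not reported here by name. Members, lists and the repeat check were chosen with earlier results of these data known. Alternatives covered the window, peak strength, merging, distance, comparison set, promoter and motif window.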

Additional observations from a re-analysis of the deposited data

How the results depend on the processing

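Each value comes from 1 library. No paired analysis was possible because 1 peak list of 1 library was analyzed, and for the same reason no replicate could be left out. The number of distinct peaks at the 9 genes, 19 within 50 kb, was 5 within 10 kb, 6 within 25 kb and 50 within 100 kb. It was 9 with a -log10 q of at least 5, 4 among the strongest 25% of peaks (-log10 q of at least 7.40), and 10 with peaks up to 1 kb apart merged. The number of genes with a peak, 7, was 3 within 10 kb, 4 within 25 kb, 9 within 100 kb and 4 with the strongest 25%, beside 48.6%, 66.8%, 84.9% and 58.2% of all miRNA genes. Mir1a-1 and Mir133a-2 went from 0 to 8 peaks at 100 kb. With the strongest 25%, the median distance moved from 29.9 to 66.2 kb and the median percentile from 41.5 to 20.9. Of the host genes, 1 had a promoter peak at 5 kb and 0 at 2 kb. Leaving out the 3 summits on 2-base repeats, an alternative added after the data were seen, left 16 peaks at 7 genes. With summits counted in place of overlaps, the numbers stayed at 19 and 7. At the most frequent background no peak with fewer than 8 fragments was listed.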

Other observations

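Runs of a 2-base repeat were searched at all summits after the windows near Mir133b had been read. A run of at least 20 bp was within 100 bp of 5138 of the 122375 summits (4.20%). It was at 680 of 25756 summits within 2 kb of a curated start site (2.64%) and at 4458 of the 96619 others (4.61%). The median fold was 5.35 with a run and 5.22 without one over the whole list, and the 3 member peaks with one had a median fold of 10.1 and the other 16 had 4.56. That member median rests on the strong peaks near Mir133b that prompted the search, and the peak near Mir499 had a fold of 5.22.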
